A study of Mus musculus with 2 samples.

Results

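The BMP, activin and Id genes comprise 10 genes of 1 signalling axis: the BMP ligands *Bmp2*, *Bmp4* and *Bmp7*, the activin subunits *Inhba* and *Inhbb*, the activin antagonist *Fst* and the BMP target genes *Id1*, *Id2*, *Id3* and *Id4*. They were chosen by name, from 21938 protein-coding genes, and all 10 were found in the annotation (GENCODE vM21, GRCm38). A peak was assigned to a gene if its centre lay within 3 kb of any transcription start site (TSS) of that gene, here called a promoter peak, or in the gene body or the 10 kb upstream of it. This gave 17 of the 77596 peaks in the WT-labelled list and 33 of the 100431 peaks in the *Bmi1*-/--labelled list. No peak was assigned to more than 1 of the 10 genes.

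Peaks came from ATAC-seq of the organ of Corti, the auditory sensory epithelium, of neonatal mice at P2. ATAC-seq reads open chromatin through the adapters that the Tn5 transposase inserts into accessible DNA. There was 1 library of WT and 1 library of *Bmi1*-/- mice, each pooled from 10 mice, so no difference between genotypes could be set against a spread between replicates and no test between genotypes was made. *Bmi1* encodes a subunit of polycomb repressive complex 1, a chromatin complex that keeps developmental genes repressed. The *Bmi1*-/- mice were constitutive knockouts, homozygous for the *Bmi1* tm1Brn allele on a C57BL/6J background, and the WT mice were littermates without the allele. The dissected tissue did not include the tectorial membrane, the modiolus or the stria vascularis anlage. The pool therefore held all remaining cell types of the organ, and with bulk material fewer open cells and less accessibility per cell cannot be told apart.

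The names of the peaks contradict the genotype labels. In the WT-labelled list, 100% of the peak names began with the abbreviation of the knockout, while 100% of those in the *Bmi1*-/--labelled list began with that of WT. The labels were kept, and every direction given here rests on them. Peaks at the targeted gene were looked at next. *Bmi1* (chr2:18677018-18686629, plus strand) had 2 peaks in the WT-labelled list and 5 in the *Bmi1*-/--labelled list. The peak at its 5′ end was at percentile 40.1 of the WT-labelled list (17 reads at the summit) and at percentile 92.0 of the *Bmi1*-/--labelled list (29 reads). An overlapping peak further upstream was at percentile 97.5 of the WT-labelled list (25 reads) and at percentile 94.3 of the *Bmi1*-/--labelled list (28 reads). The bases removed in the allele are not given in the sources used here, so these peaks do not check the genotypes.

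Each peak has a summit, a fold enrichment over the local background and a −log10 p, from which the number of reads at the summit and the local background were solved. Strength is given as the percentile of a peak's −log10 p within its own list, so that 100 is the strongest end of that list. The libraries differed in depth. The commonest background was 6.32 reads in the WT-labelled library and 8.04 reads in the *Bmi1*-/--labelled library, a ratio of 1.27, and the ratio of the numbers of peaks was 1.29. The fewest reads at the summit of any peak were 13 in the WT-labelled list and 15 in the *Bmi1*-/--labelled list. Both lists reached down to a −log10 p of about 2, and 52.4% of the peaks labelled WT and 62.8% of those labelled *Bmi1*-/- had a q-value under 0.05.

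The lists were checked for genes that mark the organ. Of 8 supporting cell markers, 7 had a promoter peak in the WT-labelled list and 6 in the *Bmi1*-/--labelled list, beside 59.1% and 68.2% of all protein-coding genes. The promoter peak of *Lgr5*, a gene of supporting cells, was at percentile 99.9 of both lists. Of 8 hair cell markers, 6 had a promoter peak in either list taken alone, and the peak of *Myo6*, a hair cell myosin, was at percentile 98.1 labelled WT and percentile 99.1 labelled *Bmi1*-/-. The median percentile over the hair cell markers with a promoter peak was 63.8 labelled WT and 50.1 labelled *Bmi1*-/-, below the 76.8 and 87.3 of all protein-coding genes, and over the supporting cell markers it was 77.1 and 96.7. *Tmc1* among the hair cell markers and *Lfng* among the supporting cell markers had no promoter peak in either list.

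BMPs and activins are secreted dimers that bring type I and type II serine/threonine kinase receptors together. BMP receptors phosphorylate one set of Smad proteins and activin receptors another, and both sets enter the nucleus with Smad4. The Id genes are direct targets of BMP signalling, and their products are helix-loop-helix proteins without a DNA-binding domain that bind E proteins and so hold back bHLH activators such as Atoh1, the factor that starts hair cell differentiation. In the developing cochlea *Bmp4* is expressed on the outer side of the duct, and activin A and follistatin form opposed gradients along its length that set the timing of hair cell differentiation.

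A promoter peak was found for 9 of 10 genes in the WT-labelled list (59.1% of all protein-coding genes) and for 10 of 10 in the *Bmi1*-/--labelled list (68.2% of all). Both lists had one for 9 genes (90.0%, exact binomial 95% interval 55.5% to 99.7%, against 53.0% of all genes). With peaks of a −log10 q of 1.3 or more the number was 6, since the promoter peaks labelled WT of *Bmp4*, *Inhbb* and *Fst* were below that value. The share of all genes at that threshold is not given here. *Inhba* had a promoter peak in the *Bmi1*-/--labelled list and not in the WT-labelled list, which was the case for 15.2% of all genes. The reverse was found for 0 members and for 6.10% of all genes. Intervals here cover counting error only.

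The *Bmi1*-/--labelled list held more peaks at most members. It held more peaks than the WT-labelled list at 8 of 10 genes (80%, interval 44.4% to 97.5%), against 53.4% of the 18210 protein-coding genes with a peak in either list, a value within that interval. It held fewer at 0 members, against 26.3% of those genes, and *Bmp2* and *Id1* had the same number in both lists. The mean number of peaks per gene was 1.70 labelled WT and 3.30 labelled *Bmi1*-/- for the members, and 2.69 and 3.38 for all protein-coding genes. The medians were 1.5 and 3 for the members and 2 and 2 for all protein-coding genes. With lists shortened to equal length, the members had 17 peaks labelled WT and 27 labelled *Bmi1*-/-.

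Within the regions assigned to the members, the overlapping peaks were promoter peaks. Of the 17 member peaks labelled WT, 7 overlapped a peak of the other list by at least 1 bp (41.2%, interval 18.4% to 67.1%), against 28.9% of all peaks of protein-coding gene regions. With a reciprocal overlap of 50%, 4 did, all of them at the Id genes. Of the member peaks labelled WT with a −log10 q of 1.3 or more, 6 of 9 overlapped (66.7%). The share over all peaks is not given for either setting, so neither count has a comparison. Of the 33 member peaks labelled *Bmi1*-/-, 7 overlapped the other list by at least 1 bp (21.2%, interval 8.98% to 38.9%), against 21.9% of all. Among promoter peaks the counts were 7 of 12 labelled WT, against 48.8% of all promoter peaks, and 7 of 19 labelled *Bmi1*-/-, against 36.6%. Of the member peaks outside promoters, 0 of 5 labelled WT overlapped the other list (upper bound of the interval 52.2%), against 15.4% of all such peaks, and 0 of 14 labelled *Bmi1*-/- did (upper bound 23.2%), against 12.1%. In the main setting, the intervals of all these member shares include the values of all genes.

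**Figure D1:**
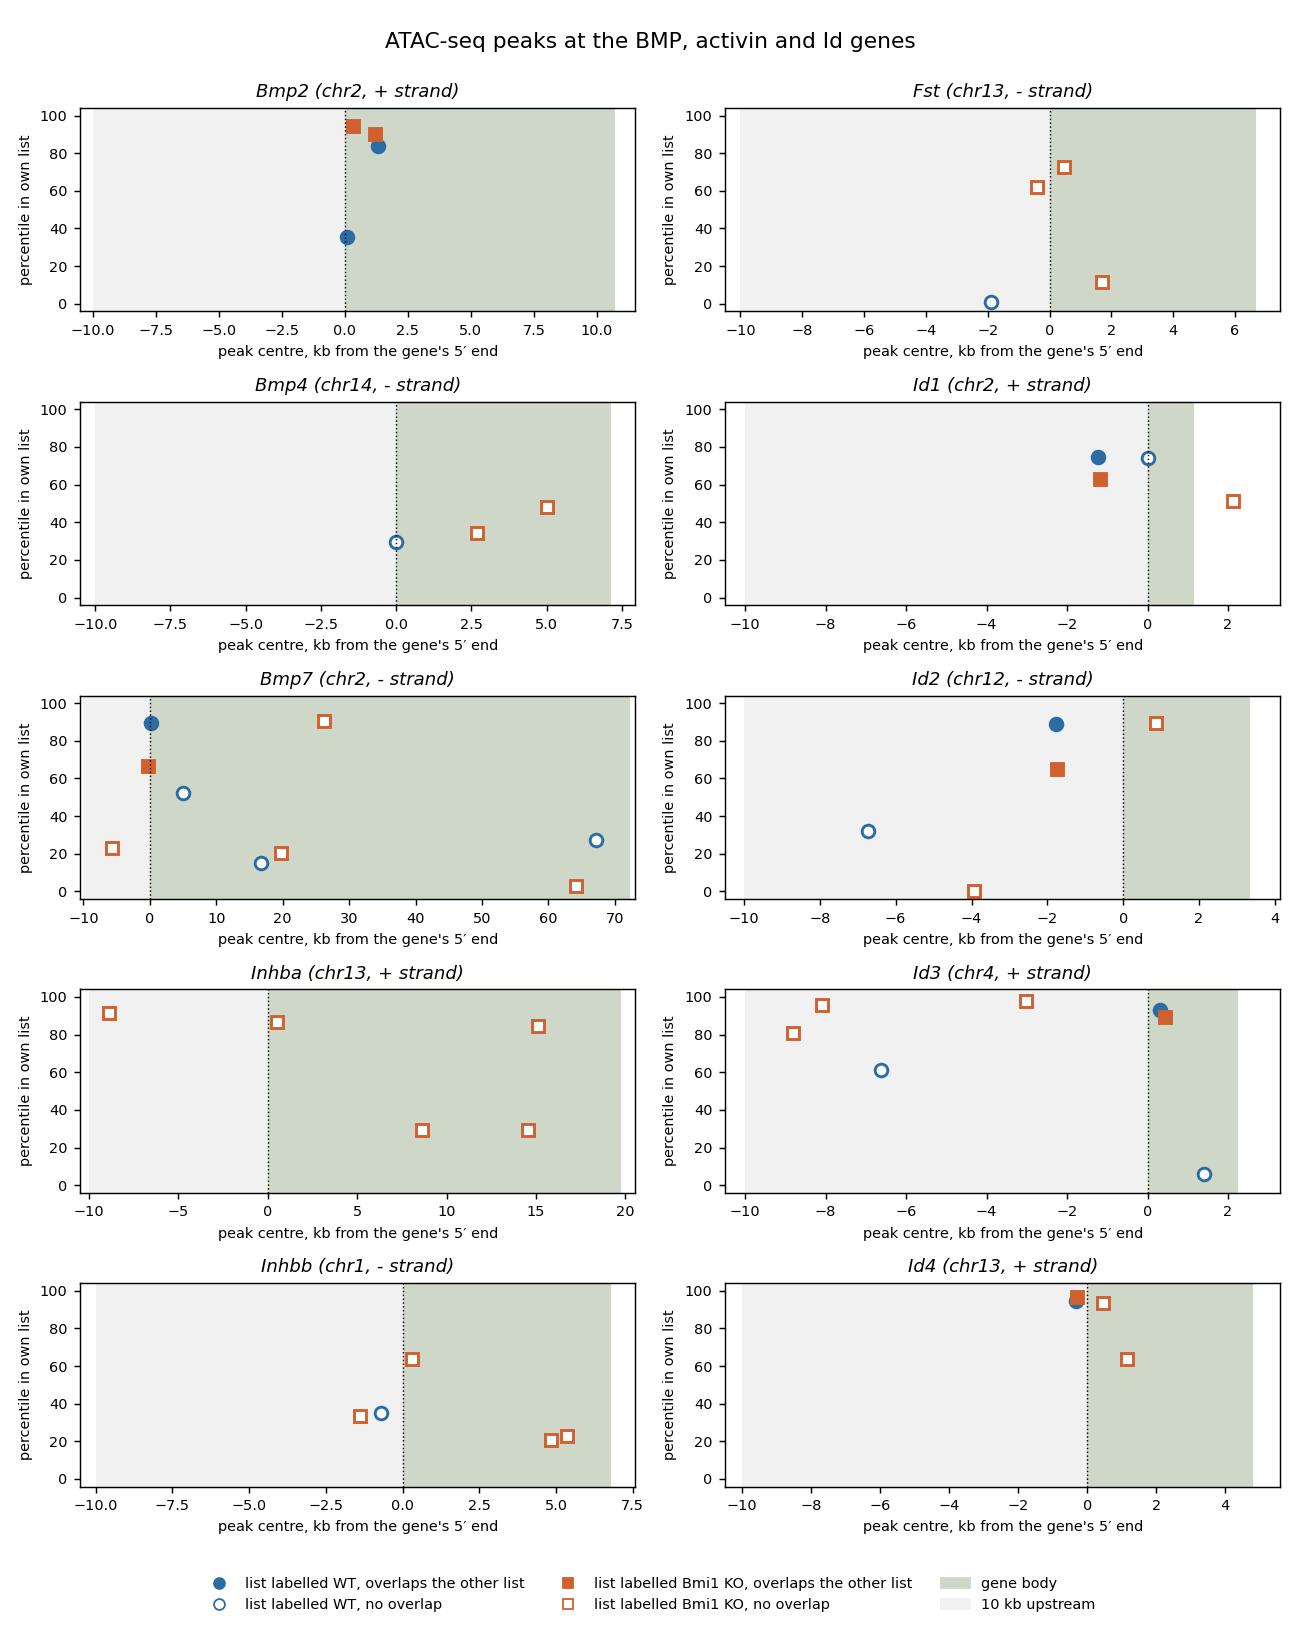
Peaks at the 10 genes, with the distance of the peak centre from the 5′ end of the gene (kb, in the direction of transcription) on the x axis and the percentile of the peak's −log10 p in its own list on the y axis. Circles are peaks labelled WT (17) and squares are peaks labelled *Bmi1* KO (33), filled where the peak overlaps one of the other list (7 and 7); filled symbols lie near the 5′ ends of *Bmp2*, *Bmp7* and the Id genes, and the panels of *Bmp4*, *Inhba*, *Inhbb* and *Fst* have none.

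The 3 BMP ligand genes had 7 peaks labelled WT and 9 labelled *Bmi1*-/-, of which 3 overlapped. *Bmp2* (chr2:133552159-133562885, plus strand) had the same pair of open positions in both lists. The peak over the 5′ UTR (chr2:133552139-133552376 labelled WT, chr2:133551995-133552980 labelled *Bmi1*-/-) was at percentile 35.7 with 18 reads and at percentile 94.4 with 31 reads. It was 238 bp wide in the WT-labelled list and 986 bp in the other, the widest of all member peaks. The second peak of *Bmp2* lay in the intron, 1273 bp (WT) and 1350 bp (*Bmi1*-/-) from the TSS at its summit, with 21 reads at percentile 83.9 and 28 reads at 90.4. In the WT-labelled list the intronic peak was thus the stronger of the 2, and in the *Bmi1*-/--labelled list the 5′ UTR peak was.

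*Bmp4* (chr14:46383520-46390669, minus strand) had peaks in both lists but at different positions. The peak labelled WT (chr14:46390568-46390803) covered the TSS at the 5′ end, with 18 reads and a local background of 7.32, at percentile 29.5. None labelled *Bmi1*-/- lay there. The peaks labelled *Bmi1*-/- lay in introns, at chr14:46385396-46385943 (25 reads, percentile 48.3) and at chr14:46387784-46388161 (24 reads, percentile 34.1). The latter lay within 3 kb of the TSS at the 5′ end, and the former counted as a promoter peak through another of the 4 annotated TSSs. The nearer of them was 2407 bp from the peak labelled WT. A TSS of the noncoding gene *Gm15222* also lay within 3 kb of both intronic peaks, so they cannot be assigned to *Bmp4* alone.

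*Bmp7* (chr2:172868012-172940321, minus strand), the longest member at 72310 bp, had 4 peaks labelled WT and 5 labelled *Bmi1*-/-. The lists had overlapping peaks at its promoter (chr2:172939913-172940451 labelled WT, chr2:172940216-172940861 labelled *Bmi1*-/-). The former had 28 reads at percentile 89.2 and the latter 31 reads at percentile 66.5. They overlapped by 236 bp, with summits 267 bp apart. This pair was lost with a stricter reciprocal overlap and with summits within 200 bp, so it may not be the same position. The remaining peaks were intronic or upstream and did not overlap. The strongest of them was labelled *Bmi1*-/-, at chr2:172913977-172914213 (30 reads, percentile 90.5), and the nearest peak labelled WT was 9231 bp away. The 3 intronic peaks labelled WT had 18, 20 and 24 reads and lay between percentiles 14.9 and 52.5.

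The activin subunit genes and *Fst* had the largest gap in numbers, with 2 peaks labelled WT and 12 labelled *Bmi1*-/-, and 0 of them overlapped. Of all peaks of protein-coding gene regions, 28.9% of those labelled WT and 21.9% of those labelled *Bmi1*-/- overlapped the other list. The 2 peaks labelled WT had a −log10 q of 1.15 (*Inhbb*) and 0.496 (*Fst*), and they are too few to set against such a share. *Inhba* (chr13:16011851-16031621, plus strand), which encodes the βA subunit of activin A, had 0 peaks labelled WT and 5 labelled *Bmi1*-/-. Its promoter peak labelled *Bmi1*-/- lay in the 5′ UTR (chr13:16012238-16012495), with 25 reads over a local background of 8.28, a −log10 q of 2.96 and a fold enrichment of 2.80, at percentile 86.8. The strongest of the 5 was 8860 bp upstream (chr13:16002857-16003124), with 26 reads at percentile 91.4. A coding exon held another at chr13:16026877-16027086 (24 reads, percentile 84.3). The other 2, in an intron and a coding exon, both had 19 reads and were at percentile 29.2.

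No peak labelled WT lay near *Inhba*. The distance from its peaks to the nearest one labelled WT was between 73031 and 96993 bp. Within 100 kb of the gene there were 2 peaks labelled WT and 7 labelled *Bmi1*-/-, and none overlapped. For comparison, protein-coding genes had a median of 12 and 15 peaks within 100 kb, so both lists were sparse around this gene. A pseudogene transcribed in the opposite direction, *B230303A05Rik*, has a TSS within 3 kb of 2 of the 5 peaks.

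*Inhbb* (chr1:119415465-119422248, minus strand), the gene of the βB subunit, had 1 peak labelled WT and 4 labelled *Bmi1*-/-. The peak labelled WT lay upstream (chr1:119422794-119423120, 23 reads, percentile 35.1). The *Bmi1*-/--labelled list had a peak on either side of it, at 404 bp further upstream (chr1:119423524-119423723, 27 reads, percentile 33.5) and over the 5′ UTR (chr1:119421795-119422117, 32 reads, percentile 63.7), 677 bp away. The gaps are short, and no peak of either list covered the other list's position. The 2 remaining peaks labelled *Bmi1*-/-, in the coding exon and the 3′ UTR, were at percentiles 20.8 and 22.7.

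*Fst* (chr13:114452290-114458951, minus strand) encodes follistatin, which binds activin and keeps it from its receptors. Its single peak labelled WT (chr13:114460704-114460984) lay 1893 bp upstream with 14 reads, 1 more than the fewest at any peak of that list. It was at percentile 1.21, with a −log10 q of 0.496. In the *Bmi1*-/--labelled list the strongest of 3 peaks covered a coding exon and intron at the 5′ end (chr13:114458325-114458641, 24 reads, fold enrichment 2.48, percentile 72.5). A second lay 418 bp upstream (chr13:114459200-114459537, 23 reads, percentile 61.9), and the third, in an intron, had 19 reads at percentile 11.8. The difference of 71.3 percentile points at the promoter of *Fst*, the largest among the members, therefore compares different positions, 2063 bp apart. The noncoding gene *Gm47040* has a TSS within 3 kb of all 4 peaks.

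The Id genes had 8 peaks labelled WT and 12 labelled *Bmi1*-/-, and each of the 4 genes had 1 overlapping pair near its 5′ end. The median percentile of their peaks was 74.6 labelled WT and 85.2 labelled *Bmi1*-/-, against 35.7 and 48.3 for the BMP ligands and 18.2 and 47.7 for the activin genes and *Fst*.

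*Id1* (chr2:152736251-152737410, plus strand) had 2 peaks in each list. The shared peak was upstream (chr2:152734799-152735264 labelled WT, chr2:152734888-152735260 labelled *Bmi1*-/-), with its summit 1093 and 1038 bp from the TSS. It had 26 reads at percentile 74.8 labelled WT and 34 reads at percentile 63.1 labelled *Bmi1*-/-. The region upstream of *Id1* is known for Smad-bound elements through which BMPs act on the gene. A second peak labelled WT covered the TSS itself (chr2:152736083-152736430, 26 reads, percentile 74.4), and no peak labelled *Bmi1*-/- lay closer than 823 bp to it. The second peak labelled *Bmi1*-/- was downstream of the gene (chr2:152738256-152738486, 34 reads, percentile 51.2).

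*Id2* (chr12:25093799-25097140, minus strand) shared an upstream peak too (chr12:25098759-25099045 and chr12:25098761-25099012), with the summit 1773 bp (WT) and 1812 bp (*Bmi1*-/-) from the nearest TSS. It had 27 reads at percentile 89.1 and 31 reads at 65.2. The *Bmi1*-/--labelled list had a stronger peak inside the gene (chr12:25096050-25096518, 35 reads, percentile 89.7), 2241 bp from the nearest peak labelled WT. The percentile of the strongest promoter peak was therefore nearly equal in the lists, with a difference of 0.606 points, although the peak that gave it was not the same one. Further upstream each list had a weak peak without overlap, at percentile 32.3 labelled WT and percentile 0.389 labelled *Bmi1*-/-.

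*Id3* (chr4:136143497-136145755, plus strand) had its shared peak at the 5′ end (chr4:136143675-136143942 and chr4:136143658-136144182), with 33 reads at percentile 93.0 and 40 reads at 89.5. Upstream of it the lists differed. The strongest of all member peaks was labelled *Bmi1*-/- and lay there, at chr4:136140349-136140627, with 49 reads over a local background of 15.6, a −log10 q of 7.50 and a fold enrichment of 3.02, at percentile 98.1. Its centre lay 3009 bp from the TSS, just beyond the 3 kb limit of a promoter peak, and the nearest peak labelled WT was 3048 bp away. A pair further upstream, also labelled *Bmi1*-/-, was at percentile 95.5 (chr4:136135192-136135625, 37 reads) and 81.0 (chr4:136134578-136134789, 29 reads). The WT-labelled list had 1 peak upstream (chr4:136136642-136137100, 22 reads, percentile 61.0), 1017 bp from the nearest of these. It also had a weak peak in the 3′ UTR at percentile 5.91. A TSS of the noncoding gene *Gm26001* lay within 3 kb of all 4 upstream peaks.

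*Id4* (chr13:48261228-48266026, plus strand) had the highest promoter percentile of the 10 genes in both lists. The shared peak was just upstream (chr13:48260671-48261128 and chr13:48260707-48261187), with 23 reads, a fold enrichment of 3.28 and percentile 94.8 labelled WT, and with 33 reads, a fold enrichment of 3.39 and percentile 96.9 labelled *Bmi1*-/-. The *Bmi1*-/--labelled list had 2 further peaks along the gene, in the coding exon (chr13:48261431-48261933, 29 reads, percentile 93.7) and in an intron (chr13:48262062-48262719, 23 reads, percentile 63.5). The exonic one was 303 bp from the peak labelled WT. A pair of noncoding genes on the other strand, *A330033J07Rik* and *Gm49291*, has TSSs within 3 kb of all 4 peaks.

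Of the 10 genes, 7 had a strongest promoter peak of higher rank in the *Bmi1*-/--labelled list (70.0%, interval 34.8% to 93.3%), close to the 68.6% of the 16298 protein-coding genes with such a peak in at least 1 list. By other settings the number was between 6 and 8, except that with a −log10 q of 5 or more 1 gene was left with a promoter peak and ranked higher in that list. *Inhba* is counted there because it had a promoter peak in that list alone. The differences were 10.5 points for *Bmp2*, 18.8 for *Bmp4*, 28.6 for *Inhbb* and 71.3 for *Fst*, and 2.05 for *Id4*. Of these genes and *Id2*, only *Id4* had its strongest promoter peak at the same position in both lists. At the 7 positions found in both lists, the percentile was higher in the *Bmi1*-/--labelled list for 3 (both of *Bmp2* and that of *Id4*) and lower for 4 (*Bmp7*, *Id1*, *Id2* and *Id3*). The 3 genes that ranked higher in the WT-labelled list were *Bmp7*, *Id1* and *Id3*, all of which had an overlapping peak at the promoter. The median percentile of the strongest promoter peak was 83.9 labelled WT and 79.7 labelled *Bmi1*-/- for the members and 76.8 and 87.3 for all protein-coding genes.

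**Figure D2:**
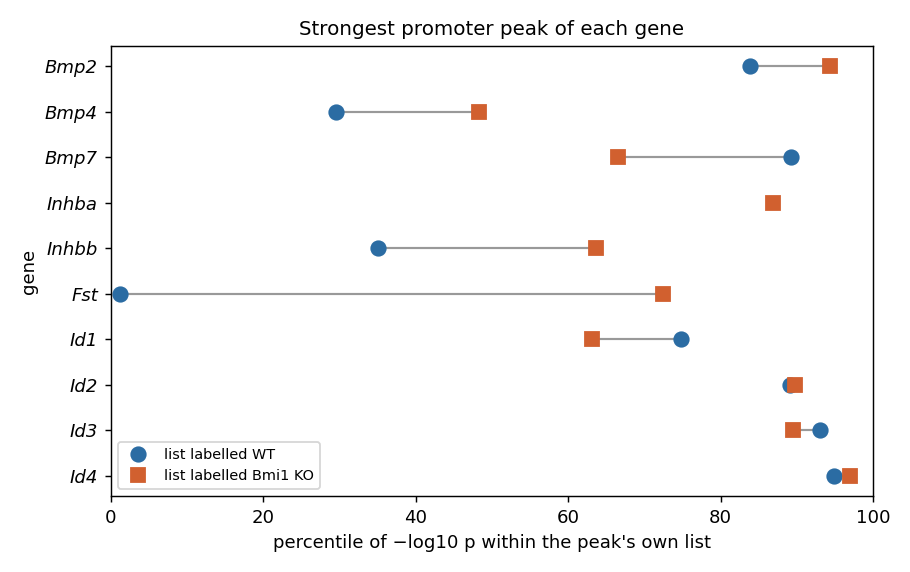
Percentile of −log10 p, within its own list, of the strongest promoter peak of each gene in the WT-labelled list (circles) and in the *Bmi1* KO-labelled list (squares), joined by a line where both exist. *Fst* lies farthest apart (1.21 and 72.5), *Inhba* has a square at 86.8 and no circle, and the Id genes lie at 63.1 or above in both lists.

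At the 7 positions found in both lists, the reads at the summit were compared after division by the commonest background of the library. *Id1* had 4.11 labelled WT and 4.23 labelled *Bmi1*-/- on this scale, a ratio of 1.03 (exact 95% interval 0.599 to 1.78). *Id3* had 5.22 and 4.98 (ratio 0.953, interval 0.586 to 1.56). *Bmp7* had 4.43 and 3.86, the lowest ratio at 0.870 (interval 0.505 to 1.51). Its summits were the farthest apart of the 7 pairs, at 267 bp, so its ratio may compare different positions. The 5′ UTR peak of *Bmp2* had 2.85 and 3.86, the highest ratio at 1.35 (interval 0.734 to 2.57). The intronic peak of *Bmp2* (1.05), *Id2* (0.903) and *Id4* (1.13) lay between, and every interval of the 7 included 1. The median of the 7 ratios was 1.03, and that of all 10318 overlapping pairs at promoters of protein-coding genes was 1.07, with 0.745 and 1.62 as the 5th and 95th percentile.

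The percentile of a peak depends on its local background as well as on its reads. The local background, on the same scale, was 1.61 labelled WT and 1.98 labelled *Bmi1*-/- at *Id1*, and 1.51 and 1.70 at *Id2*. It was 1.93 and 2.08 at *Id3* and 1.6 and 1.68 at *Bmp7*. These 4 pairs, the ones with a lower percentile in the *Bmi1*-/--labelled list, had a higher local background there, but so did the pairs of *Bmp2* (1.09 and 1.2, 1.06 and 1.16) and *Id4* (1 and 1.12). Over all member promoter peaks the median local background was 1.54 times the commonest one in the WT-labelled library and 1.38 times in the *Bmi1*-/--labelled library, against 1.12 and 1.14 at all promoter peaks. The part of the local background in the percentiles was not tested.

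**Figure D3:**
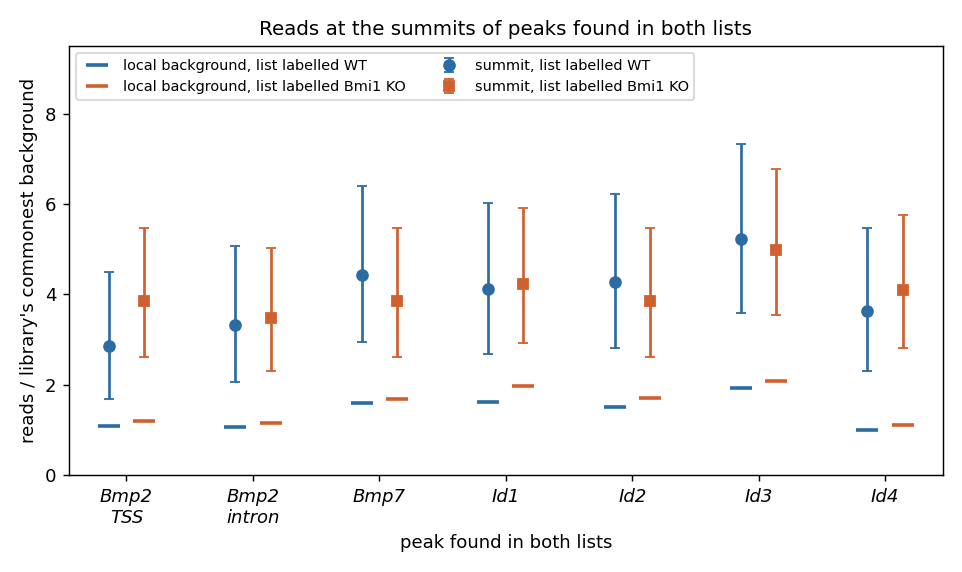
Reads at the summit divided by the commonest background of the library (y axis) for the 7 peaks found in both lists, with exact Poisson 95% intervals, for the WT-labelled library (circles) and the *Bmi1* KO-labelled library (squares); short bars are the local background on the same scale. All summit values lie between 2.85 and 5.22, the intervals of each pair overlap, and the local background is slightly higher in the *Bmi1* KO-labelled library at each position.

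For the peaks without a partner, depth was set beside the counts. The 26 member peaks labelled *Bmi1*-/- without overlap had 19 to 49 reads at the summit, which corresponds to 14.9 to 38.5 reads at the depth of the WT-labelled library. The weakest peaks of that library had 13 reads. The 10 member peaks labelled WT without overlap had 14 to 26 reads. The gap to the nearest peak of the other list had a median of 2736 bp for the former and 1787 bp for the latter, and was 1 kb or less for 4 of 26 and 3 of 10. Whether the greater depth of the *Bmi1*-/--labelled library accounts for the peaks missing in the other was not tested, since reads outside peaks are not in the files used here.

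The sequences at the summits were searched on both strands, within 100 bp, for 8 short motifs. GGCGCC, the GC-rich core of BMP-responsive elements, was found at 6 of 12 member promoter peaks labelled WT and at 6 of 19 labelled *Bmi1*-/-, against 10.5% and 10.1% of all promoter peaks. The member windows were richer in G and C, with a median of 63.4% and 61.7% against 58.7% in both lists, and the motif's part beyond base composition was not tested. GGGCGG, the GC box, was found at 8 of 12 and 6 of 19 (30.1% and 30.4% of all). CAGCTG, an E-box, was found at 1 of 12 and 6 of 19 (12.7% and 12.8%), and CACGTG, another E-box, at 2 of 12 and 1 of 19 (4.93% and 4.99%). TGACGTCA, the cAMP response element, was found at 1 of 12 and 1 of 19 (0.859% and 0.844%). TATAAA (3.42% and 2.96%) and GTCTAGAC, the palindromic Smad element (0.194% and 0.186%), were found at 0 member promoter peaks in both lists.

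The rarest of the motifs was GGCGCC followed after 5 bases by GTCT, which joins the GC-rich core to a Smad element in the spacing known from BMP-responsive enhancers. It was found at 1 member promoter peak in each list, the shared upstream peak of *Id2*. Of all promoter peaks, 9 of 20609 labelled WT (0.0437%) and 13 of 25830 labelled *Bmi1*-/- (0.0503%) held it. It was found once more among the member peaks, at the strong *Bmi1*-/- peak 3 kb upstream of *Id3*. Of all peaks of protein-coding gene regions outside promoters in that list, 3 of 38658 (0.00776%) held it. The centre of the *Id3* peak was 3009 bp from the TSS, just beyond the promoter limit, so the 0.0503% of promoter peaks is a comparison too. The motif's part beyond base composition was not tested here either. The *Id3* window was looked at after its peak had been seen to be the strongest, and a match describes the letters only.

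The shared upstream peaks of *Id1*, *Id2* and *Id4* are shown because the lists place open chromatin at the same bases there. Each sequence joins the 100 bp around both summits, read from the RefSeq assembly of GRCm38 on the strand of the gene, and matches to the motifs on either strand are in capitals. Those of *Id1* (chr2:152735058-152735313, plus strand) and *Id2* (chr12:25098813-25099052, minus strand) lie upstream of the genes and in no annotated transcript. That of *Id4* (chr13:48260714-48260986, plus strand) lies upstream of *Id4*, in introns of the noncoding genes on the other strand. GGCGCC is at bases 95 to 100 of the *Id1* window, next to the summit of the peak labelled WT, and TGACGTCA is at bases 134 to 141. In *Id2* the joined motif is at bases 185 to 199.
Id1 upstream: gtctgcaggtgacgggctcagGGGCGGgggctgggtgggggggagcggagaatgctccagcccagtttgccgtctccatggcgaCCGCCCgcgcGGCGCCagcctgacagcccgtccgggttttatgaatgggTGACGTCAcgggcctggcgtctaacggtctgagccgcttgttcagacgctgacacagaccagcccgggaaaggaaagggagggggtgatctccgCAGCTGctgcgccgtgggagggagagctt
Id2 upstream: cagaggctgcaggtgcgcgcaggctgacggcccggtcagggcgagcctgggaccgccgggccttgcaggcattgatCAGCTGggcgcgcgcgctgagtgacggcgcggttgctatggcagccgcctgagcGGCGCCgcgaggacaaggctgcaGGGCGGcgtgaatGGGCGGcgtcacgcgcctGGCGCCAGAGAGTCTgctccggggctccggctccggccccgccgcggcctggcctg
Id4 upstream: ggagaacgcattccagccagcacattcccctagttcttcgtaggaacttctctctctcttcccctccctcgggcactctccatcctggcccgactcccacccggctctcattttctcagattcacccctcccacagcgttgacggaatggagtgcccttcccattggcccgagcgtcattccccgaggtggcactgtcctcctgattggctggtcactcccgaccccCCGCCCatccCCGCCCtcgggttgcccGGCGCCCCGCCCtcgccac

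The strongest peaks outside promoters of *Id3* and *Inhba*, both found in the *Bmi1*-/--labelled list alone, are shown with them, with the 100 bp on each side of the summit. The *Id3* window (chr4:136140373-136140573, plus strand) is intergenic, 66.2% G and C, and holds the joined motif at bases 168 to 182 and a GC box at bases 48 to 53. The *Inhba* window (chr13:16002890-16003090, plus strand) lies upstream of the gene, in an intron of *B230303A05Rik* on the other strand, is 52.7% G and C with 1 CpG, and holds 0 of the motifs. Both were chosen after their peaks had been seen. Capitals mark the motifs as before.
Id3 distal: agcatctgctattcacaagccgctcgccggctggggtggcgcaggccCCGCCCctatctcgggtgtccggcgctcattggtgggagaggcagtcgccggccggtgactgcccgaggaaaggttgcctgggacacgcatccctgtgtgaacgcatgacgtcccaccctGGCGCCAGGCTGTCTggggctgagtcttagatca
Inhba distal: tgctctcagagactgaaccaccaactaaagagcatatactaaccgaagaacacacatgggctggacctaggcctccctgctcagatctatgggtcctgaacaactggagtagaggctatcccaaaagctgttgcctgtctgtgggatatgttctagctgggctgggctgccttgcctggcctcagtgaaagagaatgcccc

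Other genes of the pathway were taken as lists of 55 genes. Both lists had a promoter peak for 40 of them (72.7%, beside 53.0% of all genes), the *Bmi1*-/--labelled list alone for 8, the WT-labelled list alone for 2, and neither for 5. By the strongest promoter peak, 39 of the 50 with one ranked higher in the *Bmi1*-/--labelled list (78.0%, beside 68.6% of all genes). Where the strongest promoter peaks of a gene did not overlap, the percentiles compare different positions. Among the genes named here, this was the case for *Bmp8a*, *Inha*, *Bmpr1a*, *Smad3*, *Tcf3*, *Chrd*, *Nbl1* and *Bmper*.

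Among 15 other ligands, 8 had a promoter peak in both lists, and 8 of 12 ranked higher in the *Bmi1*-/--labelled list. *Gdf5* (percentile 33.9), *Gdf6* (22.8) and *Tgfb1* (92.8) had one in that list alone, and *Nodal* (15.5) in the WT-labelled list alone. The widest differences were at *Bmp8a*, from percentile 12.9 labelled WT to 72.7 labelled *Bmi1*-/-, and, in the other direction, at *Inha*, the inhibin α subunit, from 33.5 to 23.9. Among 11 secreted antagonists, 7 had a promoter peak in both lists, 3 in the *Bmi1*-/--labelled list alone (*Chrdl1*, *Grem1* and *Cer1*) and 0 in the WT-labelled list alone. The 10 antagonists with a promoter peak ranked higher in the *Bmi1*-/--labelled list, beside 68.6% of all genes. Of these, 3 are counted because they had no promoter peak labelled WT, and the strongest peaks of *Chrd*, *Nbl1* and *Bmper* lay at different positions in the lists. *Nog*, which encodes the BMP antagonist noggin, differed most, at percentile 7.28 labelled WT (20 reads) and 86.6 labelled *Bmi1*-/- (31 reads), with an overlapping peak.

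Among 14 receptors, 12 had a promoter peak in both lists and 11 of 13 ranked higher in the *Bmi1*-/--labelled list. The BMP type I receptor gene *Bmpr1a* was at percentile 56.8 labelled WT and 97.9 labelled *Bmi1*-/-, *Tgfbr3* at 98.5 and 86.3, and *Acvrl1* had a promoter peak in the WT-labelled list alone (percentile 29.2). All 8 Smad genes had a promoter peak in both lists, and 6 ranked higher in the *Bmi1*-/--labelled list. *Smad3*, which carries activin and TGF-β signals, was at percentile 29.5 labelled WT and 90.9 labelled *Bmi1*-/-. *Smad9*, which carries BMP signals, was at 93.4 and 21.5, the widest difference toward WT in these lists.

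The 7 bHLH partners of the Id proteins had a promoter peak in the *Bmi1*-/--labelled list for 7 and in the WT-labelled list for 5. Of the 7, 4 ranked higher in the *Bmi1*-/--labelled list and 3 in the WT-labelled list. *Neurod1* (percentile 78.0) and *Neurog1* (90.2), both factors of neuronal differentiation, had one in the *Bmi1*-/--labelled list alone. *Tcf3*, which encodes E proteins, was at percentile 31.5 labelled WT and 89.8 labelled *Bmi1*-/-. *Atoh1* was at 56.8 (18 reads) and 44.0 (20 reads).

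Markers of other cell types were set beside these counts. Of 8 macrophage and blood markers, 5 had a promoter peak in the WT-labelled list alone, 1 in the *Bmi1*-/--labelled list alone, 0 in both and 2 in neither, beside 6.10% of all protein-coding genes for WT alone and 15.2% for *Bmi1*-/- alone. By the number of peaks at the whole gene, the *Bmi1*-/--labelled list held more at 5 of the 8 and fewer at 2. The strongest of them was at percentile 70.8 (*Csf1r*, labelled WT), and *Ptprc*, which marks all leukocytes, had no peak in either list. Promoter peaks were found labelled WT and *Bmi1*-/- for 6 and 6 of 8 neuronal markers, 4 and 5 glial, 3 and 4 mesenchymal and 6 and 5 endothelial. The part of cell composition in the differences at the BMP, activin and Id genes was not tested.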

How the data were processed

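The data are 1 ATAC-seq peak list per genotype (WT and *Bmi1*-/-), grouped by GEO's labels. The submitters' processing notes name FastQC, BWA, MACS2, HOMER and the build mm10, which is GRCm38. Versions and options are not given in the sources used here. The authors called peaks in each library separately. As fold enrichment the authors deposited a linear ratio, pileup over local background at the summit, after adding 1 to both. Their deposited −log10 p follows a Poisson model, and −log10 q is the same after adjustment for multiple testing in that library. A deposited score repeats the −log10 p in whole numbers, 10 times as large, and was left unused.

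Only chromosomes 1 to 19, X and Y were used, which left out 230 peaks labelled WT and 237 labelled *Bmi1*-/-. Summit reads and local background were solved from fold enrichment and −log10 p, checked on simulated peaks. Python 3.11.15, numpy 2.4.6, pandas 2.3.3, scipy 1.17.1 and matplotlib 3.10.9 were used. Intervals are exact at 95%. Alternatives covered thresholds, windows, overlaps, annotation and strength measures. All members were named, and of each pathway list the genes with a promoter peak in 1 list and the widest difference in each direction. *Lgr5*, *Myo6*, *Tmc1*, *Lfng*, *Csf1r*, *Ptprc*, *Chrd*, *Nbl1* and *Bmper* were named after their values were seen. The members and lists were chosen with earlier results of these data known. A gene of the pathway lists is not reported here and was taken out of their counts after these had first been computed.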

Additional observations from a re-analysis of the deposited data

How the results depend on the processing

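Of 44 values under alternatives, 38 stayed within the counting interval of the main value or, for counts, within 1.5 times of it. The others came from stricter peak thresholds. The counting intervals are wide, as with 18.4% to 67.1% for the overlap of peaks labelled WT. Staying within them therefore does not show that a value is stable. At a −log10 q of 1.3 or more, 9 member peaks labelled WT were left in place of 17. At 5 or more, 0 member peaks labelled WT and 2 labelled *Bmi1*-/- were left, 0% of the latter overlapped, 0 members had a promoter peak in both lists, and the 1 member left with a promoter peak ranked higher in the *Bmi1*-/--labelled list. The overlap of the peaks labelled WT has no value there. The stricter thresholds leave fewer peaks by construction. The number of members ranking higher in the *Bmi1*-/--labelled list was 7 in the main setting. It was 6 with lists shortened to equal length and by fold enrichment, and 8 with any base of a peak in the region. It was also 8 by summit reads over the commonest background, an alternative chosen after seeing the data. With a promoter of 1 kb to each side of a TSS, and also with a −log10 q of 1.3 or more, 6 members had a promoter peak in both lists in place of 9. With a reciprocal overlap of 50%, 23.5% of the member peaks labelled WT and 12.1% of those labelled *Bmi1*-/- overlapped. The values in the main setting were 41.2% and 21.2%. The 4 pairs left of the 7 were those of the Id genes, and both pairs of *Bmp2* and that of *Bmp7* were lost. With summits within 200 bp the shares were 35.3% and 18.2%, and only the pair of *Bmp7* was lost. With a −log10 q of 1.3 or more the share labelled WT was 66.7%. With 1 library per genotype and labels that the peak names contradict, no direction has a replicate check, and peaks of 14 to 49 reads leave small differences undetectable.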

Other observations

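Some peaks lay just outside the regions assigned to the members. Downstream of *Id2* both lists had an overlapping peak, at chr12:25092609-25093131 labelled WT, with 32 reads and percentile 98.5, and at chr12:25092566-25092908 labelled *Bmi1*-/-, with 28 reads and percentile 76.0. Their centres lay 929 and 1062 bp beyond the gene. The one labelled WT was stronger than any of the 17 member peaks of that list. Downstream of *Id3* the lists also shared a peak, at percentile 75.6 labelled WT (chr4:136147794-136148429) and 35.2 labelled *Bmi1*-/- (chr4:136148061-136148603). The other peaks within 5 kb of these regions did not overlap the other list. There were 5 labelled WT, at percentiles 66.3 (*Id1*), 66.8 (*Id4*), 9.68 (*Bmp2*), 9.68 (*Bmp4*) and 7.04 (*Bmp7*). There were 6 labelled *Bmi1*-/-, at percentiles 95.4 and 80.2 (*Bmp7*), 81.6 (*Id1*), 74.3 (*Id2*), 72.8 (*Id3*) and 57.8 (*Bmp4*).

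Within 100 kb of the 10 genes there were 118 peaks labelled WT and 139 labelled *Bmi1*-/-. The medians per gene were 10.5 and 15.5, beside 12 and 15 for all protein-coding genes. The *Bmi1*-/--labelled list held more peaks at 7 of the 10 genes, beside 67.3% of all. *Fst* was among the other 3, with 7 peaks labelled WT and 5 labelled *Bmi1*-/- in this wider window, although its own region held 1 and 3. *Id1* had 23 and 18.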
